A study of Macaca fascicularis with 11 samples.

Results

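Amnion-like cells were picked out of the single-cell transcriptomes of cynomolgus macaque (Macaca fascicularis) embryos by their transcripts of ISL1 (ENSMFAG00000035949), which encodes a LIM-homeodomain transcription factor. In droplet sequencing the tag known as a UMI (unique molecular identifier) is read with each transcript, and counting tags counts molecules. A cell was taken if it held 2 or more UMIs of ISL1, or 1 UMI of ISL1 together with at least 1 UMI of WNT6 (ENSMFAG00000043502) or GABRP (ENSMFAG00000003571). Cells with 3 or more markers of trophoblast above 100 CPM (UMIs of a gene per 1000000 UMIs), or with 3 or more markers of endoderm or of extraembryonic mesenchyme above 50 CPM, were left out. In this way 351 of 33330 cells were chosen, 131 of them from wild-type and 220 from ISL1 mutant embryos, which is 1.05% of all cells. Of these, 288 had 2 or more UMIs of ISL1 and 63 had 1 UMI. The level of ISL1 in these cells, and its contrast with other cells, was therefore set by the choice and is given as a description.

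The embryos were thawed blastocysts grown in vitro until Day 10, Day 12 or Day 14, and all were kept in the same media, with oestradiol and progesterone added. The 12 wild-type embryos gave 6 libraries and the 11 ISL1 mutant embryos 5, with 1 mutant library at Day 10 and 2 of every other kind. The mutants came from zygotes injected with Cas9 and a pair of guide RNAs against ISL1, were labelled hypomorphic, and were mosaic, so a mutant library mixes cells with different alleles of the gene. Each library pooled between 1 and 3 embryos and was treated as the replicate, so p-values measure the spread between such pools. Transcripts were captured at their 3′ end, and whether the counted end of ISL1 lies in the stretch the guides remove was not checked here, so ISL1 UMIs do not check the edit. A library held between 36654977 and 164808415 UMIs, and its median cell between 10916 and 142180 UMIs. The replicates of a group differed by more than sampling noise in all 4 groups that could be compared. Cell barcodes found in 2 or more libraries numbered 124 in the series and 4 among the amnion-like cells.

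The amnion is the thin epithelium that encloses the embryo in a fluid-filled cavity. In primates it separates early, around implantation, from the epiblast, the pluripotent layer that also gives rise to the embryo proper. It is known to carry the transcription factors TFAP2A, GATA3 and HAND1 and to secrete BMP4, a signal that acts on the neighbouring epiblast, where mesoderm forms.

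Amnion-like cells made up a small share of every library that held any, and the shares of the genotypes overlapped. In the wild type, 6 of 658 cells (0.912%, exact 95% binomial interval 0.335% to 1.97%) and 19 of 670 cells (2.84%, 1.72% to 4.39%) were amnion-like at Day 10. At Day 12 none of 325 cells was found in replicate 1, which allows a share of up to 0.923% (3 of 325 cells, while the exact interval reaches 1.13%), and 30 of 981 cells (3.06%, 2.07% to 4.34%) were found in replicate 2. At Day 14 there were 48 of 3176 cells (1.51%, 1.12% to 2.00%) and 28 of 1384 cells (2.02%, 1.35% to 2.91%). The mutant library of Day 10 had the largest share of the 11 libraries, with 25 of 769 cells (3.25%, 2.11% to 4.76%). The mutant Day 12 libraries had 20 of 6018 cells (0.332%, 0.203% to 0.513%) and 63 of 5842 cells (1.08%, 0.830% to 1.38%), and the mutant Day 14 libraries 79 of 9625 cells (0.821%, 0.650% to 1.02%) and 33 of 3882 cells (0.850%, 0.586% to 1.19%). Both mutant shares at Day 14 lay below both wild-type shares, whereas at Day 12 the wild-type libraries lay on either side of the mutant ones and at Day 10 the mutant library lay above the wild-type pair. Averaged over the days, the mutant share differed from the wild-type share by -0.126 percentage points, which the exact two-sided permutation test within days did not separate from 0 (p = 0.843, smallest possible 0.00926). The labels put each library in batch B1 or B2, which is also its replicate number. Within batch 1 the mutant share was higher by 0.660 points over the 3 days, and within batch 2 the difference was -1.58 points over Day 12 and Day 14 (0.964% against 2.54%). These means cover different days and are not set against each other. In batch 1 the mutant share was higher at Day 10 (3.25% against 0.912%) and Day 12 (0.332% against 0%). It was lower there at Day 14 (0.821% against 1.51%), and lower in batch 2 on both days. The intervals and the limit at 0 cover counting error only.

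Depth bears on which cells are chosen, since a cell with more UMIs has more chances of 2 UMIs of ISL1. The median amnion-like cell held between 58885 and 113171 UMIs in the wild-type Day 10 libraries and 7499 UMIs in mutant Day 14 replicate 1. When each cell was thinned to 10000 UMIs and shallower cells were left out, 150 cells met the rule, and the wild-type Day 10 libraries kept 1 and 0 cells (0.152% and 0%). Wild-type Day 12 replicate 2 then kept 13 cells (1.39%), the wild-type Day 14 libraries 23 (0.782%) and 18 (1.38%), the mutant Day 10 library 11 (1.44%), the mutant Day 12 libraries 8 (0.143%) and 38 (0.722%), and the mutant Day 14 libraries 15 (0.275%) and 23 (0.702%). At equal depth the mutant share lay above the wild-type share by 0.169 points (exact permutation p = 0.685). This value was not stable either: it was -0.0631 points without wild-type Day 12 replicate 1 and -0.428 points without the mutant Day 10 library. It was 0.307 points within batch 1 over the 3 days and -0.673 points within batch 2 over Day 12 and Day 14. At Day 14 of batch 1 the thinned mutant share was the lower one (0.275% against 0.782%).

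**Figure D1:**
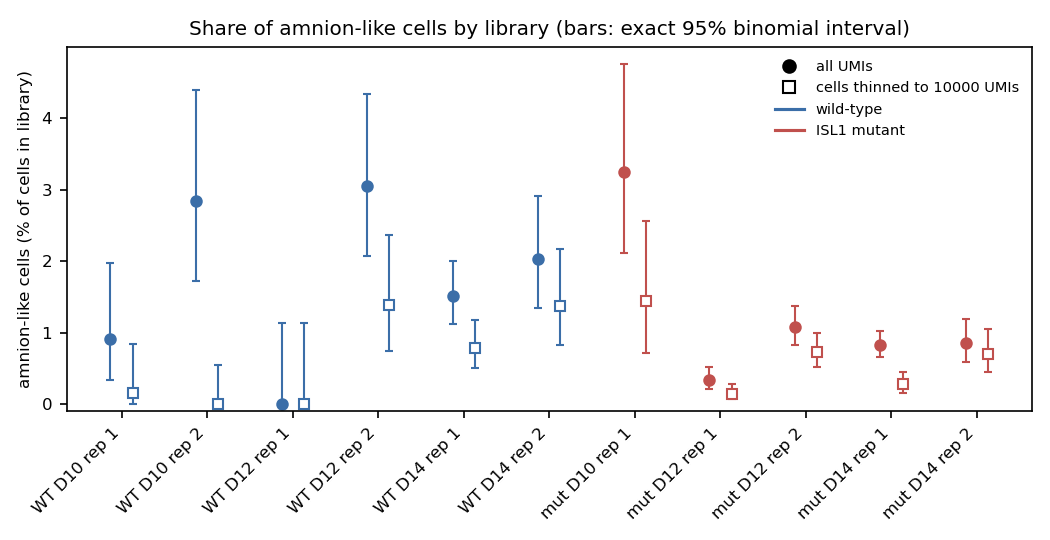
Share of amnion-like cells (% of the cells of a library, vertical axis) in the 11 libraries, for all UMIs (filled circles) and for cells thinned to 10000 UMIs (open squares), with exact 95% binomial intervals; blue is wild-type and red is ISL1 mutant. The wild-type Day 10 shares of 0.912% and 2.84% drop to 0.152% and 0% at equal depth, and the genotypes overlap.

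A UMI of other amnion genes, which the rule had not asked for, was seen in most of the chosen cells. HAND1 (ENSMFAG00000000456) was detected in 314 of 351 cells, BMP4 in 284, GATA3 in 283, TFAP2A in 244 and CDX2 in 212. By library these were 68.4% to 100% of the cells for HAND1, 36.8% to 100% for BMP4, 65% to 96% for GATA3, 50.6% to 87.3% for TFAP2A and 21.2% to 96.4% for CDX2, at median depths of 7499 to 113171 UMIs. In epiblast-marker cells, at median depths of 9379 to 132920 UMIs, HAND1 was seen in 0% to 34.2%, BMP4 in 13.7% to 45.3%, GATA3 in 18.4% to 53.3%, TFAP2A in 13.3% to 58.0% and CDX2 in 9.27% to 81.8% of the cells. The ranges overlapped for BMP4, TFAP2A and CDX2, for which a UMI alone therefore says little, and did not for HAND1 and GATA3. HAND1 did overlap with trophoblast-marker cells (up to 79.2%) and mesenchyme-marker cells (64.1% to 100%). GATA3 overlapped with trophoblast-marker (78.5% to 100%), endoderm-marker (up to 88.4%) and mesenchyme-marker cells (up to 88.1%). TFAP2A or HAND1 was present in 335 cells and both in 223. Trophoblast also makes TFAP2A and GATA3. Over the 10 libraries HAND1 stood between 453 and 2904 CPM in these cells and between 3.01 and 416 CPM in cells with trophoblast markers. BMP4 stood between 104 and 327 CPM against 0.912 to 14.6 CPM. Cells with mesenchyme markers came closer, with 142 to 1498 CPM of HAND1 and 97.8 to 266 CPM of BMP4, so neither gene sets the amnion-like cells apart from mesenchyme.

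ISL1 itself was high in the chosen cells by construction, but its level differed between libraries, from 16.1 CPM to 230.1 CPM. In the wild type it stood at 49.2 and 16.1 CPM at Day 10, at 149 CPM at Day 12, and the Day 14 pair had 110.6 and 186.8 CPM. Mutant cells held 89.6 CPM on Day 10, 96.1 and 161.6 CPM on Day 12 and 219.4 and 230.1 CPM on Day 14. The rule itself sets part of this order, since 2 UMIs are a higher CPM in a shallow cell than in a deep one. Outside the chosen cells ISL1 lay between 0.660 and 2.54 CPM in cells with trophoblast markers, between 0.227 and 5.48 CPM in cells with epiblast markers, between 6.81 and 27.5 CPM in cells with endoderm markers and between 0.682 and 24 CPM in cells with mesenchyme markers. The lower of the wild-type Day 10 values thus fell within the range of the endoderm and mesenchyme cells.

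The label amnion did not hold equally well for all libraries. The 25 wild-type Day 10 cells combined the low ISL1 with the highest pluripotency signal: the summed level of 18 pluripotency genes was 10509 and 9827 CPM there, against 694 to 4476 CPM in the amnion-like cells of the other libraries. KHDC3L, a KH-domain gene of the oocyte and early embryo, stood at 5209 and 3406 CPM in them. In trophoblast-marker cells of the same libraries, which should lack ISL1, 0.758% and 1.73% had 2 or more UMIs of it, at a median depth of 68009 and 107547 UMIs. This share was 2.26% in wild-type Day 12 replicate 2, at a median of 43812.5 UMIs, and 0.917% in the mutant Day 10 library. It does not set the wild-type Day 10 libraries apart. For their low ISL1 and high pluripotency signal the wild-type Day 10 cells are called amnion-like by the rule alone, and the count of genes at Day 14 is also given without them.

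TFAP2A (25.9 and 31.7 CPM in the wild-type Day 10 cells) reached 60.1 CPM at Day 12 and 42.4 and 116 CPM at Day 14 in the wild type, and 74.2 CPM at Day 10, 108 and 128 CPM at Day 12 and 107 and 115 CPM at Day 14 in the mutants. WNT6, a WNT ligand, stood at 36.2 and 3.21 CPM, 8.33 CPM, and 52.2 and 22.2 CPM on the wild-type days, and at 64.3 CPM, 35.2 and 61.5 CPM, and 48.4 and 102 CPM on the mutant days. GABRP, a subunit of a GABA receptor, was the most uneven of the markers, with 46.0 CPM in wild-type Day 14 replicate 1, 64.5 and 60.4 CPM in the mutant Day 14 libraries and at most 15.4 CPM in each of the others. It was seen in 92 of 351 cells.

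**Figure D2:**
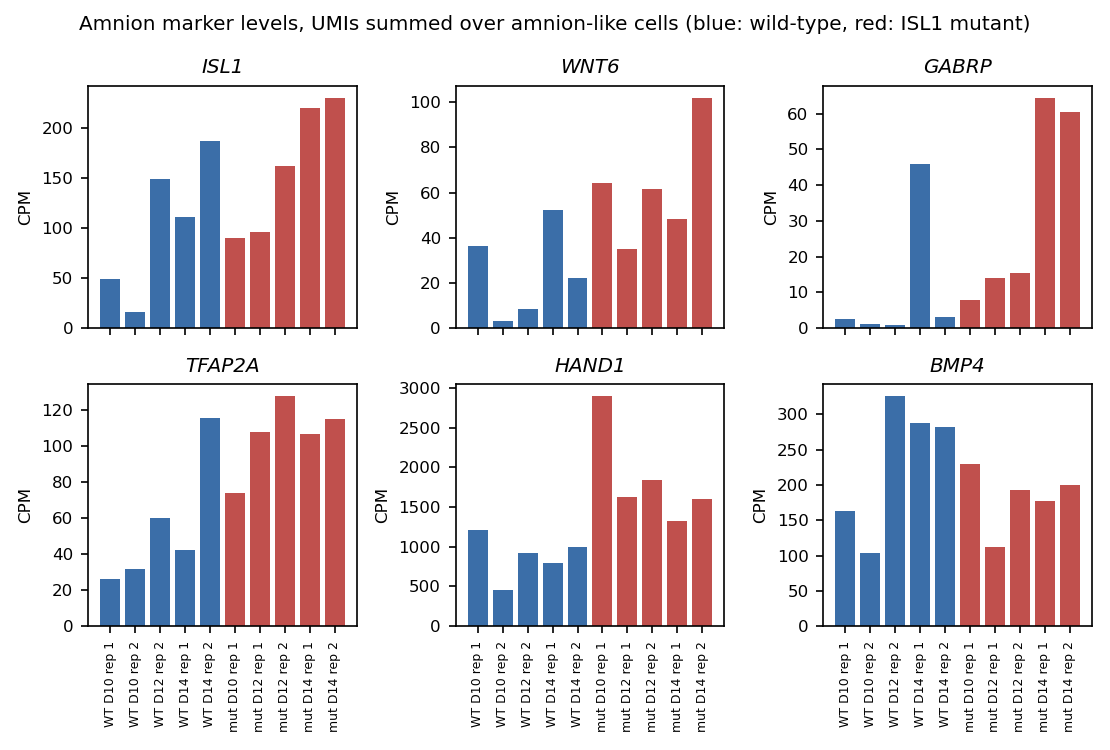
Levels (CPM, vertical axes, from UMIs summed over the amnion-like cells of each library) of 6 amnion genes in the 10 libraries with such cells, with 1 bar for each library, blue for wild-type and red for ISL1 mutant. ISL1 is lowest in the wild-type Day 10 cells (49.2 and 16.1 CPM), and GABRP is high in wild-type Day 14 replicate 1 (46.0 CPM) and in both mutant Day 14 libraries (64.5 and 60.4 CPM).

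Around the threshold the amnion genes changed by degrees. The 276 cells with 1 UMI of ISL1 and none of WNT6 or GABRP, which lay just outside, had 426 CPM of HAND1, 44.7 CPM of BMP4 and 30.2 CPM of TFAP2A, with a UMI of HAND1 in 49.6% and of TFAP2A in 47.1% of them. The 63 cells that entered with 1 UMI had 838, 122 and 53.5 CPM of these genes, and the 105 cells with exactly 2 UMIs had 1041, 126 and 42.4 CPM. The 183 cells with more than 2 UMIs had 1717, 275 and 92.2 CPM.

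By level, the genes that stood out in amnion-like cells over the highest of the 4 other classes, after adding 25 CPM, were led by ISL1, which the rule had chosen, at 130.8 CPM against 13.6 CPM in endoderm-marker cells. COX4I2, an isoform of a cytochrome c oxidase subunit, followed with 155 CPM against 30.0 CPM. It stood at 208 CPM in wild-type Day 14 replicate 1, at 63.3 and 141 CPM in the mutant Day 12 libraries and at 570 and 487 CPM in the mutant Day 14 libraries, and at no more than 35.2 CPM in the others. HEY1, a target of Notch and BMP signalling, averaged 104 CPM against 21.4 CPM, and WLS, the carrier protein that WNT ligands need to be secreted, 383 CPM against 124 CPM. WNT6 averaged 43.4 CPM against 1.43 CPM and was absent from the endoderm-marker cells of all 11 libraries. Besides these, CLDN10, a tight junction protein, averaged 61.1 CPM against 9.68 CPM, HOXD12 40.2 CPM against 2.79 CPM, ANXA3 117 CPM against 39.7 CPM, and WFDC2, a secreted protease inhibitor, 2703 CPM against 1230 CPM. ACTA1 (59.3 CPM), TSPAN2 (115.0 CPM), LYPD1 (61.1 CPM), SPAG4 (89.8 CPM), SPNS2 (47.4 CPM) and MSX1 (91.3 CPM) completed the leading genes that have a symbol. These contrasts use the genes of the very cells that were chosen and carry no test.

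Pluripotency genes were detected to a different extent between libraries, which also differed in depth. POU5F1, a pluripotency factor of the epiblast, was still detected in 292 of 351 cells. Its share was 83.3% to 100% in 9 libraries and 54.4% in mutant Day 14 replicate 1, where the cells were shallowest. In trophoblast-marker cells, which should lack it, 0.846% to 56.1% of the cells had a UMI, with the highest share in wild-type Day 10 replicate 2, the library in which the amnion-like cells were deepest. NANOG was found in 103 cells, with 84.2% in wild-type Day 10 replicate 2 and 3.80% in mutant Day 14 replicate 1, the libraries with the deepest and the shallowest amnion-like cells. In trophoblast-marker cells of these libraries it was seen in 24.3% and 1.21%.

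GABRP and VTCN1, genes of the later amnion, were seen in a subset. At least 1 of the pair was present in 121 cells. The rule used GABRP for cells with 1 UMI of ISL1, so its shares are in part set by the choice: it was found in 39.7% of these 63 cells, against 20.95% and 24.6% of those with 2 and with more UMIs. GABRP was found in 45.8% of the cells of wild-type Day 14 replicate 1, in 39.2% and 51.5% of those of the mutant Day 14 libraries and in 28.0% of the mutant Day 10 cells. In wild-type Day 14 replicate 2 it was found in 7.14%, in the mutant Day 12 libraries in 10.0% and 11.1% and in wild-type Day 12 replicate 2 in 3.33%. VTCN1 followed the same libraries, with 33.3% in wild-type Day 14 replicate 1, 36.0% in the mutant Day 10 library and 30.4% and 45.5% in the mutant Day 14 libraries. In trophoblast-marker cells GABRP was seen in 0.642% to 11.6% and VTCN1 in 0% to 1.73% of the cells. Among wild-type embryos the GABRP- and VTCN1-bearing cells thus came mainly from 1 of the 2 Day 14 libraries.

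Early mesoderm genes were also seen in a subset. A UMI of MIXL1, MESP1 or TBXT, transcription factors of the primitive streak and nascent mesoderm, was present in 58 cells. The wild-type Day 10 libraries had such cells at 50% and 63.2%, against 33.3% in wild-type Day 12 replicate 2 and 27.1% and 7.14% in the wild-type Day 14 libraries. Mutant shares were 24% on Day 10, 10.0% and 12.7% on Day 12, and 2.53% and 0% on Day 14. MIXL1 alone was seen in 2.49% to 27.7% of trophoblast-marker cells and in 0% to 52.6% of the amnion-like cells of a library. In both mutant Day 14 libraries and in the mutant Day 10 library its share in amnion-like cells was below that in trophoblast-marker cells. The latter were deeper there (median of 12033 against 7499, 30888 against 16718 and 115652 against 73133 UMIs), so no expression of MIXL1 is read from these shares.

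ISL1 was examined in cells chosen without it, since it could not be tested in cells chosen by it. These cells had at least 2 UMIs of WNT6 and GABRP together and 1 of TFAP2A, under the same exclusions, and 98 of the 175 were also amnion-like by the ISL1 rule. In the wild type ISL1 stood at 22.9 and 9.79 CPM at Day 10 (8 and 9 cells), at 0 CPM in Day 12 replicate 1 (6 cells) and at 81.6 CPM in Day 14 replicate 1 (31 cells), and the other wild-type libraries had fewer than 5 such cells, with 204 CPM in Day 12 replicate 2 (3 cells) and 214 CPM in Day 14 replicate 2 (4 cells). Mutant levels were 114 CPM on Day 10, 13.8 and 96.4 CPM on Day 12 and 59.0 and 182 CPM on Day 14. Over the 9 libraries with at least 5 such cells the mutant mean was higher by 63.9 CPM within days, which the exact two-sided permutation test did not separate from 0 (p = 0.185, smallest possible 0.0370). The size of this difference rested on the minimum of 5 cells, which left out the 2 highest wild-type levels: over all 11 libraries, a choice made after seeing the data, it was 7.81 CPM (exact permutation p = 0.852). Only batch 1 held enough such cells of both genotypes for a value within a batch, where the mutant mean was higher by 27.5 CPM over the 3 days.

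WNT6 and GABRP could be tested in the cells with 2 or more UMIs of ISL1, for which the rule did not use them. WNT6 was present in 7.69% of such wild-type cells in Day 10 replicate 2, in 16.7% in Day 12 replicate 2 and in 66.7% and 32.1% at Day 14, and for mutant cells these shares were 60% on Day 10, 25.0% and 49.1% on Day 12, then 32.1% and 80.0% on Day 14. GABRP was present in 0%, 3.33%, 46.2% and 7.14% of the same wild-type cells and in 28.0%, 12.5%, 12.7%, 32.1% and 48.0% of the mutant ones. Both shares were higher in the mutant on average over the days, by 26.4 points for WNT6 (exact permutation p = 0.222) and by 16.9 points for GABRP (exact permutation p = 0.139, smallest possible 0.0278). Day 10 enters with 13 wild-type cells of replicate 2, which are called amnion-like by the rule alone. Without that library, and so without Day 10, the differences were 13.5 points for WNT6 and 11.3 points for GABRP. In cells thinned to 10000 UMIs the differences were 24 points for WNT6 (exact permutation p = 0.111) and 14.96 points for GABRP (exact permutation p = 0.0278, the smallest this design can give). Over the 4 tests of this family that value is 0.111 after Benjamini-Hochberg adjustment. At full depth neither difference held within batches: at Day 14 of batch 1 the difference, mutant minus wild type, was -34.6 points for WNT6 and -14.1 points for GABRP, and within batch 2 the mutant share was higher by 40.1 and 25.1 points over Day 12 and Day 14. In thinned cells the WNT6 difference was -23.2 points in batch 1 and 35.4 points in batch 2, whereas the GABRP share was higher in the mutant in both, by 8.48 points (32.4% against 40.9%) and by 24.8 points (1.79% against 26.6%). Thinning also left out cells under 10000 UMIs, so that 22 of the 53 cells of mutant Day 14 replicate 1 remained. Its GABRP share was 32.1% in the 53 cells and 40.9% in the 22. The sign in batch 1 thus differs between unlike sets of cells. In trophoblast-marker cells, at a median of 12033 to 147098 UMIs, WNT6 was seen in 0.282% to 5.20% of the cells.

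The main comparison was between mutant and wild-type amnion-like cells at Day 14. The Notch-related ligand DLK1, the insulin-like growth factor binding protein IGFBP5 and the membrane proteins EMP3 and CD99 were higher in mutant cells, and KHDC3L and ISOC1 were lower. UMIs were summed over the amnion-like cells of each library and compared by edgeR's quasi-likelihood test, with all 10 libraries that had at least 5 such cells sharing the estimate of the spread. The wild-type Day 14 pair differed more between replicates than the other groups did. With only the libraries compared, 1 of the 6 genes named above passed a false discovery rate of 1%. Of 8937 genes tested, 7 passed a false discovery rate of 1% (0.0783%), 5 of them higher in the mutant (0.0559%) and 2 lower (0.0224%), and 1 of the 7 has no symbol. A rate of 5% was passed by 222 genes (2.48%), 131 of them higher (1.47%) and 91 lower (1.02%). The gene groups below can hold only genes with a symbol, which came from gene tables of the same study. Such tables list genes that the paper found to differ in these data, between cell types and between mutant and wild type. A gene may thus have a symbol because it differed here. Of 913 such genes tested, 6 passed 1% (0.657%) and 124 passed 5% (13.6%), and these are the shares to read a group's count against. The signs of the estimates were not counted over the 913 genes, so the sign counts below have no such share beside them. The gene lists were also chosen with earlier results of these data known. Counts and signs within a list are therefore a description and no independent support for its theme.

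DLK1 stood at 19.1 and 4.45 CPM in the wild-type and at 346 and 359 CPM in the mutant Day 14 libraries, a difference of 4.86 on the log2 scale (SE 0.54, edgeR adjusted p = 0.00394). It was not above 50.4 CPM in any library of Day 10 or Day 12, so the mutant Day 14 libraries stood above the other 8. DLK1 is on the trophoblast list, but outside the amnion-like cells it was lowest in trophoblast-marker cells (a mean of 3.23 CPM). It averaged 25.9 CPM in mesenchyme-marker, 14.4 CPM in endoderm-marker and 4.54 CPM in epiblast-marker cells. Of the 10 trophoblast genes listed that the rule did not use, DLK1 and KISS1 (1.55 and 0 CPM against 33.5 and 7.19 CPM) had a positive estimate and 8 a negative one, with a median of -1.06.

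IGFBP5 stood at 53.3 and 14.8 CPM in the wild type and at 971 and 615 CPM in the mutant, a difference of 4.59 (SE 0.50, edgeR adjusted p = 0.00585). IGFBP5 is among the extraembryonic mesenchyme genes listed. EMP3 stood at 20.7 and 22.2 CPM against 260 and 198 CPM, a difference of 3.58. CD99 stood at 341 and 249 CPM against 2238 and 1777 CPM, a difference of 2.92. For both, the mutant Day 14 libraries lay above every other library.

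KHDC3L stood at 549 and 719 CPM in the wild type and at 7.44 and 28.8 CPM in the mutant, a difference of -4.98 (SE 0.54, edgeR adjusted p = 0.00394). Its level was 5209 and 3406 CPM in the wild-type Day 10 cells, 371 to 846 CPM in the other libraries of Day 10 and Day 12, and lowest in the mutant Day 14 cells. ISOC1 stood at 266 and 249 CPM in the wild type and at 31.0 and 23.0 CPM in the mutant, a difference of -3.09, and it lay between 136 and 318 CPM elsewhere. The paper reports KHDC3L as higher in its amnion cluster AM-1 than in AM-2, which GABRP marks. A UMI of GABRP or VTCN1 was present in 24 of 48 and 2 of 28 wild-type Day 14 cells. In the mutant it was present in 46 of 79 and 21 of 33. Whether this mix of cells took part in the differences at Day 14 was not tested.

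**Figure D3:**
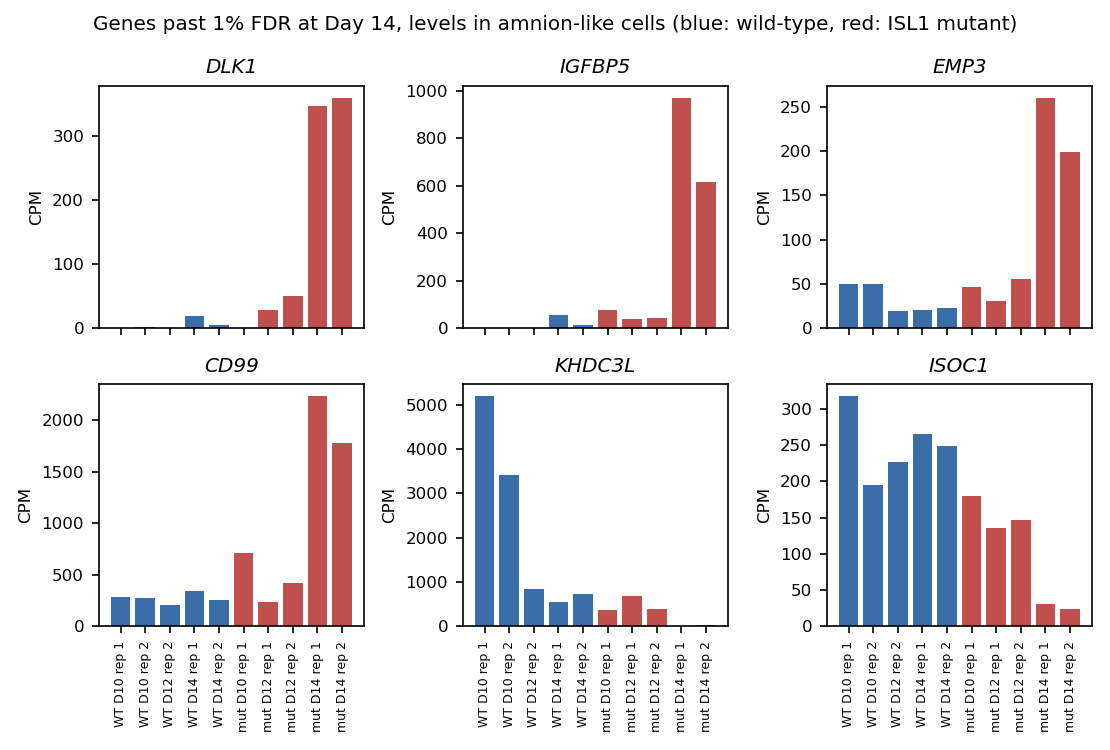
Levels (CPM, vertical axes, from UMIs summed over the amnion-like cells of each library) of the 6 genes with a symbol that passed a false discovery rate of 1% between mutant and wild-type cells at Day 14, with 1 bar for each of 10 libraries, blue for wild-type and red for ISL1 mutant. DLK1, IGFBP5, EMP3 and CD99 are highest in both mutant Day 14 libraries, and KHDC3L and ISOC1 are lowest there.

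Each of these 6 genes had the same direction in batch 1 and in batch 2. Genes were named only where the libraries of the genotypes did not overlap. That choice fixes the direction within batches, which therefore adds no support. With the batch of the labels as a block the count was 49 (43 higher and 6 lower), and the 6 named genes passed. The number of genes past 1% also depended on which libraries shared the fit, while the named genes kept their direction under all 24 alternatives, with log2 differences of 4.36 to 6.43 for DLK1, 4.04 to 5.88 for IGFBP5, 3.40 to 4.69 for EMP3, 2.71 to 3.16 for CD99, -6.29 to -3.53 for KHDC3L and -3.29 to -2.81 for ISOC1. None of the 6 passed 1% without both wild-type Day 10 libraries (edgeR adjusted p of 0.0108 to 0.0167). The alternative with at least 20 cells per library is the same fit, and the counts below hold it under both names. None passed with 2 or more ISL1 UMIs, without cells bearing MIXL1, MESP1 or TBXT, or without mutant Day 14 replicate 1. In all, CD99 missed 1% in 11 of the 24 alternatives, DLK1 and IGFBP5 in 9, KHDC3L in 8, and EMP3 and ISOC1 in 7, with adjusted p (edgeR or DESeq2) of at most 0.0516. In cells chosen without ISL1, where only replicate 1 of wild-type Day 14 had enough cells, 6 genes passed, 3 of them among the 7. Without mutant Day 14 replicate 1 no gene passed (by edgeR), without wild-type Day 10 replicate 2 there were 2, without both wild-type Day 10 libraries 1, which was the gene without a symbol, and without mutant Day 14 replicate 2 there were 4. Without wild-type Day 14 replicate 1 there were 50, without wild-type Day 14 replicate 2 there were 11, without the mutant Day 10 library 18, and without mutant Day 12 replicate 1 or 2 there were 30 or 21. In simulated data of the same size the fit recovered 22.1% of genes changed by 2 and 82.6% of genes changed by 4 on the log2 scale. Of its calls there, 3 of 46 and 9 of 166 were genes that had not been changed, which is above the nominal 1%.

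ISL1, WNT6 and GABRP were part of the rule, so their levels at Day 14, given above, are a description and carry no test in this set of cells. TFAP2A and HAND1, which the rule did not use, did not pass the threshold. The estimate was 0.70 on the log2 scale for TFAP2A (SE 0.42, edgeR adjusted p = 0.373) and 0.89 for HAND1 (SE 0.38, adjusted p = 0.215 by edgeR), against a median of 0.01 over all genes tested. Of the 20 other amnion genes none passed 1%, 12 had a positive and 8 a negative estimate. NPPB, a natriuretic peptide, stood at 32.6 and 4.45 CPM in the wild type and at 379 and 341 CPM in the mutant, a difference of 4.25 that passed at 5% (SE 0.70, edgeR adjusted p = 0.0165). MSX1, a homeobox gene downstream of BMP, stood at 104 and 148 CPM against 26.0 and 50.3 CPM, and its estimate of -1.55 did not pass.

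BMP4 stood at 288 and 282 CPM in the wild-type and at 177 and 200 CPM in the mutant Day 14 cells, so both mutant libraries lay below both wild-type ones. The estimate was -0.43 on the log2 scale (SE 0.32, edgeR adjusted p = 0.475). Of 11 BMP genes tested, which included the targets ID1 to ID4 and the inhibitor BAMBI, none passed and 5 were positive. ID3 stood at 665 and 894 CPM against 454 and 446 CPM, an estimate of -0.63, and BAMBI at 452 and 668 CPM against 480 and 828 CPM, an estimate of 0.40. Of 13 WNT genes tested besides WNT6, which the rule used, none passed and 7 were positive. WLS stood at 403 and 142 CPM against 981 and 935 CPM, an estimate of 1.96 (edgeR adjusted p = 0.0607).

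Hypoxia and glycolysis genes were the list with the highest median, and this list too was chosen with earlier results of these data known. All 24 had a positive estimate with a median of 2.47 (2.07 to 2.80 under the alternatives), none passed 1%, and 9 passed 5%, against 13.6% of all genes with a symbol. Under the alternatives between 0 and 22 of them passed 1%, with the most when no filter on low counts was set. That setting called 562 of 16306 genes, and its share among genes with a symbol was not computed. P4HA1, a collagen prolyl hydroxylase, stood at 190 and 81.5 CPM in the wild type and at 780 and 999 CPM in the mutant, an estimate of 2.86. The glucose transporter SLC2A1 stood at 409 and 157 CPM against 968 and 1107 CPM, an estimate of 2.03 (edgeR adjusted p = 0.0907), and the glycolytic enzyme GAPDH at 4766 and 3382 CPM against 10505 and 10481 CPM, an estimate of 1.53 (edgeR adjusted p = 0.0532). EGLN3, an oxygen-sensing hydroxylase, passed at 5% with 3.31 (SE 0.46, edgeR adjusted p = 0.0107). ADM, the vasoactive peptide adrenomedullin, had 6 and 1 UMIs in the wild-type cells and 23 and 104 in the mutant cells. The sum over the list was 12413 and 7663 CPM in the wild-type and 27012 and 31202 CPM in the mutant Day 14 cells, and it was also high in mutant Day 12 replicate 2, at 23902 CPM against 9311 CPM in mutant Day 12 replicate 1.

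Mitochondrially encoded genes lay at the other end. All 13 had a negative estimate with a median of -1.76, and none passed 1% or 5%. Under the alternatives between 0 and 12 passed 1%, with the most when no filter on low counts was set (562 of 16306 genes called, share among genes with a symbol not computed). CYTB stood at 5004 and 15877 CPM in the wild type and at 3665 and 942 CPM in the mutant, an estimate of -2.05 (edgeR adjusted p = 0.112), and ND1 at 1925 and 7894 CPM against 1091 and 661 CPM, an estimate of -2.34 (edgeR adjusted p = 0.0501). The summed share of the amnion-like UMIs was 2.39% and 7.03% in the wild-type and 1.82% and 0.742% in the mutant Day 14 libraries. Wild-type Day 14 replicate 2 carried most of this contrast: without it the median was -0.18, with 10 of 13 genes negative. In the cells chosen without ISL1, a fit that also lacked this library, it was -0.15.

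Genes of extraembryonic mesenchyme were next to hypoxia genes in median. The rule used 5 of the 13 genes tested to leave mesenchyme out, and these are given as a description. The other 8 all had a positive estimate with a median of 2.07, IGFBP5 passed 1% and 1 more passed 5%. The summed level of all listed mesenchyme genes was 357 and 261 CPM in the wild-type and 2120 and 1058 CPM in the mutant amnion-like cells, and 3765 and 7532 CPM in the wild-type and 9852 and 14348 CPM in the mutant mesenchyme-marker cells of the same libraries. Of the 6 markers by which mesenchyme was left out, COL6A2, a chain of collagen VI, stood at 31.5 and 20.8 CPM in the wild-type and at 229 and 106 CPM in the mutant cells, COL3A1, a fibrillar collagen, stood at 45.5 and 0 CPM against 50.8 and 5.75 CPM, CCDC80 at 4.14 and 0 CPM against 13.6 and 2.88 CPM, and the transcription factor HAND2 at 6.72 and 11.9 CPM against 7.44 and 24.4 CPM. HGF, a growth factor, stood at 1.03 and 1.48 CPM against 3.72 and 0 CPM, and POSTN had no UMI in the wild type and 2.48 and 0 CPM in the mutant. The rule limits all 6 in these cells. The part of mesenchymal RNA in these values was not tested.

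The list of 18 mesenchymal and matrix genes shares LUM, COL1A1 and COL6A3 with these, and of its 15 other genes 12 had a positive estimate, with a median of 1.05. The collagen cross-linking enzyme LOX had no UMI in the wild-type Day 14 amnion-like cells and 192 and 24 UMIs in the mutant ones (238 and 34.5 CPM), so it was at least 125-fold higher, against a floor of 3 UMIs over the wild-type group. Replicate 1 carried most of these UMIs, and from mutant Day 14 replicate 2 alone the bound was 30.0-fold. VIM, the intermediate filament of mesenchymal cells, stood at 359 and 723 CPM against 1976 and 1633 CPM, an estimate of 1.90 that did not pass. SPARC, a matrix glycoprotein, stood at 120 and 78.6 CPM against 538 and 227 CPM and passed at 5%. Of the epithelial genes, 12 of 16 keratins and junction genes had a positive estimate (median 0.74), and EPCAM, an epithelial adhesion molecule, stood at 553 and 402 CPM against 1343 and 797 CPM and passed at 5% with 1.31.

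Cell cycle genes had a negative estimate in 17 of 18 cases (median -1.05). MKI67, a marker of cycling cells, stood at 152 and 190 CPM in the wild type and at 48.4 and 34.5 CPM in the mutant, an estimate of -1.87 that passed at 5% (SE 0.30, edgeR adjusted p = 0.0164). It was detected in 68.8% and 75.0% of the wild-type and in 24.1% and 24.2% of the mutant Day 14 amnion-like cells, while in trophoblast-marker cells the shares were 68.7% and 79.7% against 43.2% and 44.4%. CCND2, a D-type cyclin, was the exception, at 61.5 and 44.5 CPM against 290 and 184 CPM, and it passed at 5% with 2.29.

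Pluripotency genes had a negative estimate in 13 of 18 cases (median -1.38, or -1.12 with FGF2, which had no UMI in the mutant cells, at its bound). The median of -1.38 ran from -2.20 to -0.36 under the alternatives. Besides KHDC3L, DPPA5 stood at 239 and 551 CPM against 40.9 and 44.6 CPM and passed at 5% with -3.04. POU5F1 itself stood at 656 and 1364 CPM against 331 and 712 CPM, with overlapping libraries. Of 8 early mesoderm genes tested all had a negative estimate and none passed (median -1.69, or -1.62 with EOMES, which had no UMI in the mutant cells, at its bound). Of 16 HOX and CDX genes 13 had a negative estimate (median -0.79, and -1.35 to -0.27 under the alternatives). CDX1, a caudal homeobox gene, stood at 96.2 and 341 CPM against 29.8 and 2.88 CPM and passed at 5% with -3.53, and CDX2 at 78.1 and 467 CPM against 81.8 and 50.3 CPM, with overlapping libraries. The paper reports DPPA5, CDX1, CDX2 and several HOX genes, like KHDC3L, as higher in AM-1 than in AM-2. The part of the mix of such cells in these values was not tested.

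Of 17 actin and sarcomere genes none passed 1%, and 9 were positive. ACTA1, a muscle actin, stood at 480 and 47.4 CPM against 9.92 and 10.1 CPM and passed at 5% with -4.57. Of 13 stress genes 9 were positive (median 1.37). DDIT3, a factor of the unfolded protein response, stood at 3.62 and 7.41 CPM against 50.8 and 77.6 CPM and passed at 5% with 3.86. Of 4 endoderm genes tested that the rule did not use 2 were positive. APOE, an apolipoprotein on that list, stood at 1151 and 1538 CPM against 5923 and 4917 CPM and passed at 5% with 2.17 (edgeR adjusted p = 0.0139). The rule limits the 6 markers by which endoderm was left out, and they are given here in UMIs summed over the amnion-like cells of each Day 14 library. APOA1 stood at 6.20 and 4.45 CPM against 8.68 and 4.31 CPM, TTR at 0 and 1.48 CPM against 6.20 and 0 CPM, and SOX17 at 12.9 and 4.45 CPM against 1.24 and 0 CPM. FOXA2, IHH and VTN did not exceed 2.96 CPM in any of the 4 libraries. The summed level of all 15 trophoblast genes, 5 of which the rule limits, was 2088 and 153 CPM in the wild-type and 1470 and 845 CPM in the mutant Day 14 cells, so that wild-type Day 14 replicate 1 held the most. Without it the median of the 10 others was 2.31 in place of -1.06.

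**Figure D4:**
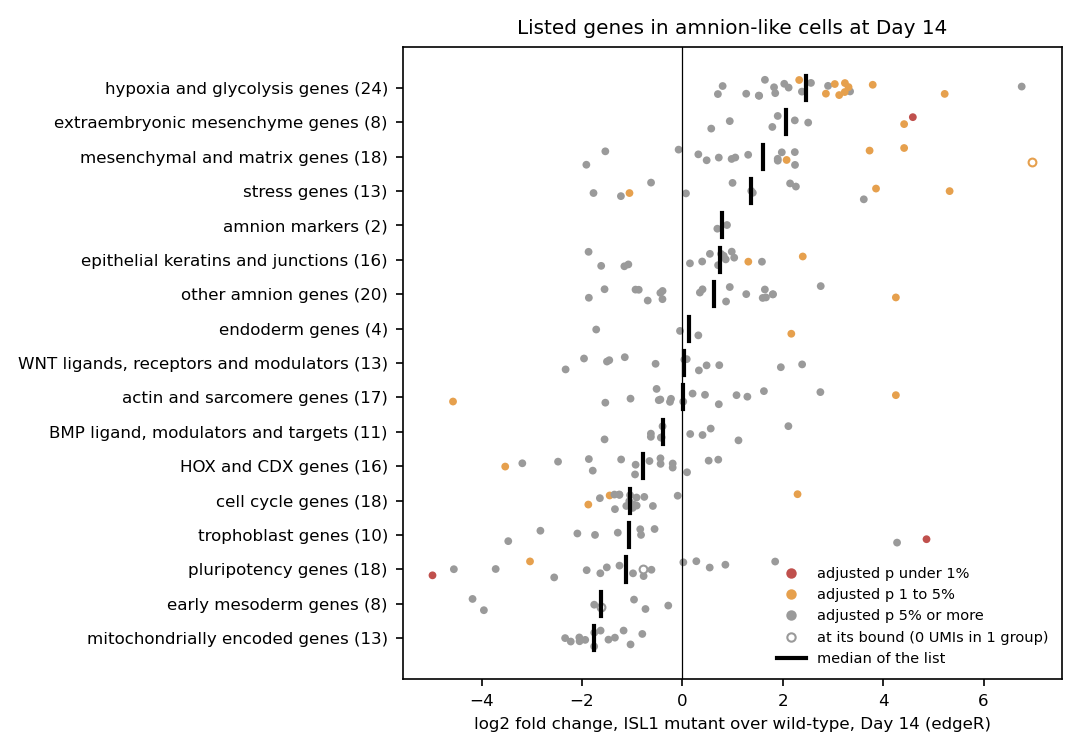
Log2 fold changes (horizontal axis, ISL1 mutant over wild-type amnion-like cells at Day 14, edgeR) of the genes of 17 lists, with the number tested in brackets, each point a gene (which may stand on 2 lists) and each black bar the median of its list, without the genes that the rule used; red points passed 1%, orange points 5%, and open points are genes without a UMI in 1 group, drawn at the bound that 3 UMIs allow. All 24 hypoxia and glycolysis genes lie above 0 and all 13 mitochondrially encoded genes below 0.

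Trophoblast-marker cells of the same libraries were used to ask whether these differences were those of whole libraries. At Day 14 the estimated mutant effect on mitochondrially encoded transcripts was more negative, and that on hypoxia and glycolysis transcripts more positive, in amnion-like cells than in trophoblast-marker cells, but whether genes passed depended on the test. The difference of the mutant effect at Day 14 between the 2 classes was fitted as an interaction with the library as a block, over the 7 libraries of Day 12 and Day 14, which leaves 3 residual degrees of freedom. Of 14658 genes tested 370 passed 1% (2.52%), 163 of them more positive (1.11%) and 207 more negative (1.41%) in amnion-like cells. Of the 992 genes with a symbol 178 passed 1% (17.9%), which is the share to read the groups against. At 5% there were 575 (3.92%), 243 more positive (1.66%) and 332 more negative (2.26%). All 13 mitochondrially encoded genes passed, in the negative direction, with a median difference of -2.41. Of the 24 hypoxia and glycolysis genes 12 passed, all in the positive direction, with a median of 1.22. This fit pools the spread over genes, as does the limma test below, which also has 3 residual degrees of freedom. In simulated data of the same size it recovered 14.6% and 48.2% of genes changed by 2 and by 4 on the log2 scale, with 0 false calls among 29 and 96. When each library's own log2 ratio of amnion-like over trophoblast-marker cells was tested by limma instead, a choice made after seeing the data, no gene passed 1% or 5% (0%, smallest adjusted p = 0.0912, 1324 genes with an unadjusted p under 0.05). In simulated data of the same size that test recovered none of 200 genes changed by 2 or by 4 on the log2 scale, so its count of 0 does not show that the classes were alike. All 13 mitochondrially encoded genes were negative and all 24 hypoxia and glycolysis genes positive in it, with medians of -2.42 and 1.46.

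CYTB stood at 5674 and 11123 CPM in the wild-type and at 17848 and 17708 CPM in the mutant trophoblast-marker cells at Day 14, so the mutant values were the higher ones there and the lower ones in amnion-like cells (difference -3.41). The log2 ratio of CYTB in amnion-like over trophoblast-marker cells was -0.49 and 0.35 in the wild-type and -2.50 and -4.46 in the mutant Day 14 libraries, so the mutant libraries lay below the wild-type ones (limma SE of the difference 0.81, adjusted p = 0.404). For COX3 the difference was -2.73 and for ND1 -1.97. NPPB stood at 960 and 2642 CPM in the wild-type and at 150 and 399 CPM in the mutant trophoblast, against a higher level in mutant amnion-like cells, which gave a difference of 6.82. HAND1 stood at 28.2 and 71.9 CPM against 15.4 and 3.01 CPM in trophoblast (difference 3.43), and APOE at 102 and 363 CPM against 71.9 and 170 CPM (difference 2.83). P4HA1 had a difference of 1.67, WLS 1.75, EPCAM 1.64 and KRT19 1.48 in the positive direction, and CDX1 -3.89 and MSX1 -1.93 in the negative direction. The count rested on the libraries of Day 12 as well: it was 8 with the 4 Day 14 libraries alone and 30 without wild-type Day 12 replicate 2, and 208, 124 and 86 without wild-type Day 14 replicate 2, mutant Day 14 replicate 1 and mutant Day 14 replicate 2. Of the mitochondrially encoded genes 2 passed with the Day 14 libraries alone, and of the hypoxia and glycolysis genes between 0 and 13 passed under the alternatives. The share among genes with a symbol was not computed for these settings.

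The sums in the other classes are given beside those of the amnion-like cells. The hypoxia and glycolysis sum at Day 14 was 15662 and 7669 CPM in the wild-type and 24137 and 34448 CPM in the mutant epiblast-marker cells, 13055 and 4990 CPM against 18141 and 32966 CPM in endoderm-marker cells, 11053 and 8358 CPM against 13459 and 22763 CPM in mesenchyme-marker cells, and 8055 and 5557 CPM against 9769 and 10702 CPM in trophoblast-marker cells. The mutant values were the higher ones in each class. The mitochondrially encoded sum was 23871 and 70308 CPM against 18197 and 7419 CPM in amnion-like cells, and 25152 and 68035 CPM against 77734 and 71391 CPM in trophoblast-marker cells. Wild-type Day 14 replicate 1 was thus low in both classes, whereas the mutant Day 14 libraries were low in amnion-like cells and high in trophoblast-marker cells. The sums were 32398 and 71880 CPM against 48116 and 17721 CPM in epiblast-marker cells, 11713 and 41197 CPM against 20898 and 10173 CPM in endoderm-marker cells, and 23126 and 67801 CPM against 51392 and 33958 CPM in mesenchyme-marker cells, where the genotypes overlapped. The paper states that cells were filtered on mitochondrial expression (under 7.5%), so these sums come from cells already selected on it. Whether that filter, or the state of the cells at dissociation, took part in these differences was not tested.

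**Figure D5:**
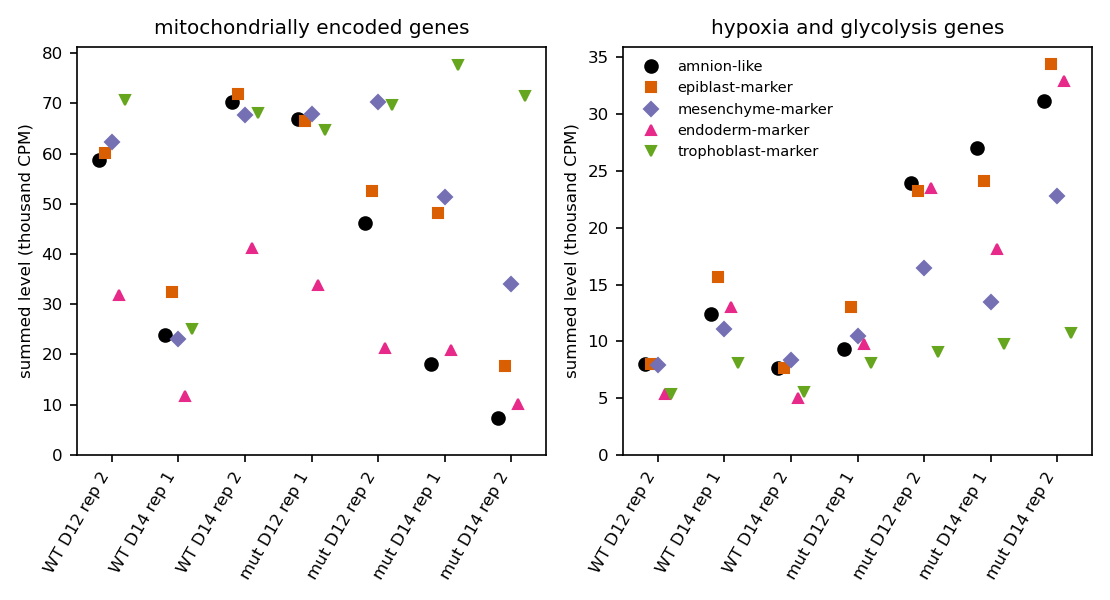
Summed level (vertical axes, in units of 1000 CPM) of the 13 mitochondrially encoded genes (left) and the 24 hypoxia and glycolysis genes (right) in 5 cell classes, for the 7 libraries of Day 12 and Day 14 with amnion-like cells. In the mutant Day 14 libraries amnion-like cells (black circles, 18197 and 7419 CPM) lie below trophoblast-marker cells (green triangles, 77734 and 71391 CPM) on the left and above them on the right.

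At Day 12, wild-type cells of 1 library (30 cells) were compared with mutant cells of 2 (20 and 63 cells). No gene passed 1% by edgeR (0%), 1029 genes had an unadjusted p under 0.05, and DESeq2 called 14. BMP4 stood at 327 CPM in the wild type and at 113 and 193 CPM in the mutants, HAND1 at 915 CPM against 1625 and 1846 CPM and TFAP2A at 60.1 CPM against 108 and 128 CPM. Hypoxia and glycolysis genes were positive in 22 of 24 cases (median 1.68, or 1.55 with NDUFA4L2 and ADM, which had no UMI in the wild-type cells, at their bound), and the 10 trophoblast genes that the rule did not use in 9 cases (median 2.60, or 2.34 with genes without a UMI in the wild-type cells at their bound), none of them called. INSL4, a placental hormone gene that the rule limits, stood at 401 CPM in mutant Day 12 replicate 1 and at 2.10 CPM in mutant Day 12 replicate 2, so the trophoblast genes differed between the mutant libraries too.

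From Day 12 to Day 14 no gene passed 1% in wild-type cells by edgeR (0%, 736 genes with an unadjusted p under 0.05, 4 by DESeq2), and 1 gene without a symbol passed in mutant cells (0.0112%, 33 or 0.369% at a rate of 5%, 63 by DESeq2, 13 with the batch as a block). Of the 33, 27 were higher at Day 14 (0.302%) and 6 lower (0.0671%). Without wild-type Day 14 replicate 1 or 2 the mutant count was 48 or 60, and without mutant Day 14 replicate 1 or 2 it was 0. In the wild type the HOX and CDX genes had a negative estimate in 15 of 16 cases (median -1.30), with HOXB9 at 63.8 CPM at Day 12 and 2.07 and 29.6 CPM at Day 14, and all 17 actin and sarcomere genes had a positive estimate (median 1.12). The 10 trophoblast genes that the rule did not use were all positive (median 2.87), and the summed level of all 15 was 290 CPM at Day 12 and 2088 and 153 CPM at Day 14, and their part in these values was not tested. In the mutants the pluripotency genes had a negative estimate in 15 of 18 cases (median -2.08) and all 8 extraembryonic mesenchyme genes that the rule did not use a positive one (median 2.93). IGFBP5 stood at 37.5 and 44.1 CPM in the mutant Day 12 cells and at 971 and 615 CPM at Day 14. For the change of the mutant effect between the days, tested as an interaction, no gene passed by edgeR (0%, 647 with an unadjusted p under 0.05, 4 by DESeq2). An effect seen at Day 14 is therefore not shown to differ from that at Day 12.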

How the data were processed

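Single-cell RNA was captured with a 10x Genomics 3′ kit (v3) in 11 libraries of 12 wild-type and 11 mutant embryos. Cell Ranger 3.1.0 and the Ensembl annotation of Macaca_fascicularis_5.0 served the authors for alignment and for the deposited raw UMI count per gene and cell. The authors then subtracted free RNA with SoupX, which gave the deposited estimated counts, whole numbers that are not scaled. These were used here. By library, 0.196% to 8.77% of UMIs had been subtracted. The authors had also filtered cells on mitochondrial expression (under 7.5%) and on how many genes they expressed. No doublet caller was run. Gene symbols came from the supplementary gene tables, which paired 1014 identifiers of 19367, among them 257 of the 278 symbols listed for the gene groups. The members and the gene lists were chosen with earlier results of these data known.

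Counts were summed over the amnion-like cells of each library with at least 5 of them and tested by edgeR 4.0.16 (R 4.3.3) with TMM scaling, filterByExpr, and quasi-likelihood tests on means of genotype and day, at a false discovery rate of 1%. DESeq2 1.42.0, limma 3.58.1 on log2 ratios with a prior count of 2, leave-one-out fits, other filters and other cell rules were alternatives. Genes named in the text were list members, the 15 leading genes with a symbol by log2 level (25 CPM added) over the highest other class, and up to 12 genes per direction past 1% with a symbol, 10 CPM or more in the higher group and no overlap between the libraries compared. For a gene without a UMI in a group, a bound was set with a floor of 3 UMIs over the group. Other classes had 3 or more markers of trophoblast (above 100 CPM), endoderm or mesenchyme (above 50 CPM) and of no second class, or, with none of these and not amnion-like, 3 or more of POU5F1, NANOG, L1TD1, LIN28A, DPPA4 and GDF3 above 50 CPM for epiblast. Exact permutation tests were two-sided and ran within days over libraries. Levels were compared within genes, and intervals were exact binomial at 95%. The code was tested on simulated data.

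The labels' batch number was shared between groups and was used as a block. Deviations of libraries with the same number from their group means correlated by 0.0313 to 0.181 over 6 pairs of groups.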

Additional observations from a re-analysis of the deposited data

Results flagged for a closer look

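A test of the difference itself separated the mutant effect at Day 14 in amnion-like cells from that in trophoblast-marker cells of the same libraries for 370 genes (edgeR, 1%). The median of that difference was -2.41 on the log2 scale over the 13 mitochondrially encoded genes and 1.22 over the 24 hypoxia and glycolysis genes, against -0.09 over all genes tested. Both lists were chosen with earlier results of these data known. No other class was tested against amnion-like cells. The hypoxia and glycolysis sums at Day 14 were higher in the mutant in every class. The mitochondrially encoded sums of the genotypes overlapped in epiblast-, endoderm- and mesenchyme-marker cells. Whether the difference is particular to amnion-like cells was not tested. This fit and the limma test that follows both have 3 residual degrees of freedom and pool the spread over genes. By limma on each library's log2 ratio, chosen after seeing the data, no gene passed 1% (smallest adjusted p = 0.0912, 1324 genes with an unadjusted p under 0.05). No group held 4 or more libraries, so single libraries could not be tested as outliers.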

How the results depend on the processing

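For mutant against wild-type cells at Day 14 the count of 7 genes became 222 at a false discovery rate of 5%, 152 by DESeq2, 562 with no filter on low counts, 49 with the replicate block (the labels' batch), 20 with uncorrected counts, 4 with only the libraries compared, 1 with at least 20 cells per library, 1 with only cells of 2 or more ISL1 UMIs, 1 without cells bearing MIXL1, MESP1 or TBXT, 25 with fewer than 2 markers of each excluded class, 38 without the cells of highest UMI count, and 1 without both wild-type Day 10 libraries, a choice made after seeing the data. The fit with at least 20 cells per library is the one without both wild-type Day 10 libraries, since among the libraries fitted only those held fewer. Leaving out 1 library gave 0 to 50. At Day 12 the count of 0 became 14 by DESeq2, 187 with no filter, 252 with only the libraries compared and 16 in cells chosen without ISL1 (leave-one-out 0 to 0), and it could not be computed without wild-type Day 12 replicate 2. From Day 12 to Day 14 the wild-type count of 0 became 4 by DESeq2, 120 with no filter and 16 in cells chosen without ISL1 (leave-one-out 0 to 5). The mutant count of 1 became 33 at 5%, 63 by DESeq2, 312 with no filter, 13 with the replicate block, 3 with uncorrected counts, 4 with only the libraries compared, 9 with fewer than 2 excluded markers, 6 without the cells of highest UMI count and 36 in cells chosen without ISL1 (leave-one-out 0 to 60). The change of the mutant effect between days, with 0 genes, had 4 by DESeq2, 98 with no filter and 1 in cells chosen without ISL1 (leave-one-out 0 to 0). The 370 genes of the comparison with trophoblast-marker cells became 575 at 5%, 102 by DESeq2, 8 with only the libraries of Day 14, 161 with 2 or more ISL1 UMIs, 121 in cells chosen without ISL1 and 0 by limma on each library's log2 ratio, chosen after seeing the data (leave-one-out 30 to 395). The replicate block was run on the first 5 of these comparisons and left the counts of 0 at 0. The fit against trophoblast-marker cells has the library itself as its block. Without both wild-type Day 10 libraries the counts after the first were as before (0, 0, 1, 0 and 370). The 370 could not change there, nor in the leave-one-out fits without a Day 10 library, since that fit holds only Day 12 and Day 14 libraries. Cells chosen without ISL1 left wild-type Day 14 with replicate 1 alone. The cause of these shifts was not tested.

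The difference in the share of amnion-like cells changed sign to 0.169 points in thinned cells, 0.00776 with 2 or more ISL1 UMIs alone, 0.195 without wild-type Day 10 replicate 2 and 0.384 without wild-type Day 12 replicate 2, and ranged from -0.878 to 0.384 when 1 library was left out. GABRP in cells with 2 or more ISL1 UMIs reached the smallest possible p with a difference of 14.96 points when thinned, with cells under 10000 UMIs left out. Leaving out 1 library gave 10.4 to 23.4 points for GABRP, 13.5 to 34.4 points for WNT6, and 43.5 to 84.3 CPM for ISL1 in cells chosen without it. Over all 11 libraries the ISL1 difference was 7.81 CPM. The median of the 10 trophoblast genes at Day 14 (-1.06) changed sign to 0.781 in cells chosen without ISL1, 0.823 with fewer than 2 excluded markers and 2.31 without wild-type Day 14 replicate 1 (leave-one-out -3.08 to 2.31). BMP4 at Day 12 changed sign to 5.72 in cells chosen without ISL1, where the only wild-type library in the fit was replicate 1, not used in the other fits. It had 1 UMI of BMP4 in 6 cells, whereas replicate 2, left out with 3 such cells, had 51 UMIs. The value of 5.72 therefore rests on 1 UMI and on which library was left.

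Wild-type Day 12 rests on 30 cells and 1 library, and 68 of the 351 cells had under 10000 UMIs, 50 of them in mutant Day 14 replicate 1. In the Day 14 comparison a gene changed by 2 on the log2 scale would mostly be missed (22.1% recovered in simulated data). No simulation was run for Day 12.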
